A study of Mus musculus with 3 samples.

Results

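Small nucleolar RNAs (snoRNAs) guide the chemical modification and cleavage of ribosomal RNA, and in mammals most of them are cut out of the introns of longer host genes. A group of these hosts encodes no large protein, and 7 such genes are described here: Gas5, Snhg1, Snhg3, Snhg5, Snhg6, Snhg8 and Snhg12. They were taken by name, and each had its own row among 23337 gene symbols. In the mouse annotation (GENCODE release M21, assembly GRCm38) each contains between 1 and 9 snoRNA genes on its own strand, 27 in all, so the group name holds for every member.

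One transcript of such a gene has separate products. After splicing, the intron lariat is opened by the debranching enzyme and trimmed back to the snoRNA, which is protected by its bound proteins and is long lived. The joined exons are exported, are engaged by ribosomes at short open reading frames, and are usually broken down by nonsense-mediated decay. Many hosts also start transcription at a pyrimidine-rich (5′ TOP) site like ribosomal protein genes, and Gas5, named for growth arrest-specific expression, is known to build up in resting T cells.

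RNA was sequenced from CD4+ T cells labelled Th1, the helper subset that makes interferon gamma. The mice were wild type, of the strain given as C57/Bl6j, and 7 weeks old. The lymphoid group has 2 libraries, titled spleen, whose tissue entry lists spleen, lymph nodes and draining lymph nodes. The tumour group has 1 library, from B16-F10 tumours, a transplanted mouse melanoma. No treatment is named, and the labels do not say whether libraries came from separate or pooled animals, and the p-values therefore reflect library-to-library spread that could be technical.

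Values are FPKM (fragments per kilobase of transcript, relative to library depth) divided by a median-of-ratios size factor for each library, called scaled FPKM. Estimated depths were 11460000 and 15630000 fragments for the lymphoid libraries and 3271000 for the tumour library. As deposited, the median of 9800 tested genes was lower in the tumour library by a log2 change of -0.96, and scaling brought it to -0.01. T cell markers were present in every library (8 rows summing to 687.9, 682.7 and 647.8 scaled FPKM). Macrophage markers summed to 0.441, 0.529 and 5.04 over 8 rows, and melanoma markers to 1.35, 1.49 and 3.35 over 7 rows. The CD8 T cell markers (2 rows) summed to 0.558, 0.814 and 5.27, and Cd8b1, the 1 tested, was called higher (log2 change 1.82, limma adjusted p = 0.00255). Of 6 Th1 markers 1 was called, Ifng, which was lower at 12.9, 12.0 and 4.53 scaled FPKM (log2 change -1.28, limma adjusted p = 0.00535). With counting error limma called neither Cd8b1 (adjusted p = 0.0756) nor Ifng (adjusted p = 0.215). The part of these markers in the results was not tested. Odorant and vomeronasal receptor genes, which T cells are not known to use, averaged 0.0100 and 0.0436 scaled FPKM in the lymphoid libraries and 0.266 in the tumour library, over 1411 rows without the highest 2 percent. Fewer cells of a type and less RNA per cell cannot be told apart in these bulk libraries.

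The sequences show the 2 kinds of snoRNA that these hosts carry. Box C/D snoRNAs guide ribose methylation and box H/ACA snoRNAs guide pseudouridylation. For each host the snoRNA row with the highest FPKM is given, a choice that depends on the length correction of very short RNAs. Sequences are from GENCODE (GRCm38), with capitals for TGATGA (box C) in the first 25 bases and CTGA (box D) in the last 15, or for ACA standing 3 bases before the end.
Snord47 in Gas5 (chr1:161038082-161038158, plus strand): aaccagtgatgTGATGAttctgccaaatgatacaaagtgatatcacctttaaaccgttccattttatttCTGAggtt
Snord22 in Snhg1 (chr19:8725866-8725991, plus strand): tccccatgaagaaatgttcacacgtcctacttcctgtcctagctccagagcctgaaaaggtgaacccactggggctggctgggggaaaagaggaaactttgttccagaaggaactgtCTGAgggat
Snord99 in Snhg12 (chr4:132310691-132310764, plus strand): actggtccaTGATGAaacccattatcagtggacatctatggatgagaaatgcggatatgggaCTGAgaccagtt
Snord87 in Snhg6 (chr1:9942463-9942549, minus strand): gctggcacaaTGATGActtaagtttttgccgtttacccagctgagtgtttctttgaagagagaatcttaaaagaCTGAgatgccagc
Snora24 in Snhg8 (chr3:123507937-123508066, minus strand): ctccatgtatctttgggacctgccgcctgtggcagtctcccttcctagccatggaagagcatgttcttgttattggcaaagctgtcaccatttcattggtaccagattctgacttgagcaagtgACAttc
These letters were searched on the RNA strand only. Of 98 annotated Snord transcripts 69.4% hold both boxes by this rule, and of 42 Snora transcripts 83.3% hold the ACA. In Snord22 CTGA lies in the last 15 bases and TGATGA was not found in the first 25.

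The start sites are shown because the hosts are known for pyrimidine-rich starts. Each window holds the 30 bases before and 30 after an annotated start (RefSeq, GRCm38.p6), on the gene's strand, with the longest unbroken run of C and T in capitals. RefSeq's table matched 6 of the 7 genes, and Snhg6 was not matched.
Gas5, downstream start (chr1:161035136-161035195): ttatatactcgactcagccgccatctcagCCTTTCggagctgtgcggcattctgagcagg
Gas5, upstream start (chr1:161034571-161034630): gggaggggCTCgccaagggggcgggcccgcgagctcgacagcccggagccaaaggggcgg
Snhg1 (chr19:8723457-8723516): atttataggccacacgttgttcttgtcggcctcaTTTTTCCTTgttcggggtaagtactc
Snhg12 (chr4:132308648-132308707): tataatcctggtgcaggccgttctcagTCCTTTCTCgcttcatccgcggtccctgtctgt
Snhg5 (chr9:88522868-88522927): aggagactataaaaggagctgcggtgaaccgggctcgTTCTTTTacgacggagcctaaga
Snhg8 (chr3:123508307-123508366): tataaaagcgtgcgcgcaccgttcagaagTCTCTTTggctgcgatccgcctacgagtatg
Snhg3 (chr4:132353657-132353716): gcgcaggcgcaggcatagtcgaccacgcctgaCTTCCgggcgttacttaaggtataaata
The longest runs were 9 bases in Snhg1 and Snhg12, 7 in Snhg5 and Snhg8, 6 at the downstream Gas5 start and 5 in Snhg3. With the first transcribed base as 1, they began at -3 in Snhg12 and at -1 in Snhg8 and at the downstream Gas5 start. In Snhg1, Snhg5 and Snhg3 they began at 5, 8 and 3, and so do not include the first transcribed base. Runs of at least 9 bases occurred in 15.6% of 32851 windows of all genes, at least 7 in 33.8%, at least 6 in 49.6% and at least 5 in 70.9%. The upstream Gas5 start had a run of 3, beginning at -22, a length reached by 97.8% of windows.

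The hosts split into 5 that were higher and 2 that were lower in the tumour library than in either lymphoid library, after scaling. Of all tested genes 41.3% likewise lay above both lymphoid libraries and 42.6% below both. By limma with Benjamini-Hochberg adjustment over all 9800 tested genes, Snhg1, Snhg3, Snhg6 and Snhg12 rose and Snhg5 fell. That is 4 higher and 1 lower of 7, where 12.7% of all tested genes were called higher and 9.17% lower (21.9% either way). Gas5 and Snhg8 were not called. Only 1 residual degree of freedom was left, and the lone tumour sample is taken to vary as the lymphoid pair did. With the estimated counting error of the tumour library added, limma's adjusted calls among the 7 were 0 (3 higher and 1 lower at an unadjusted p under 0.05), against 3.38% of genes called higher and 0.35% called lower in that fit (3.73% either way).

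**Figure D1:**
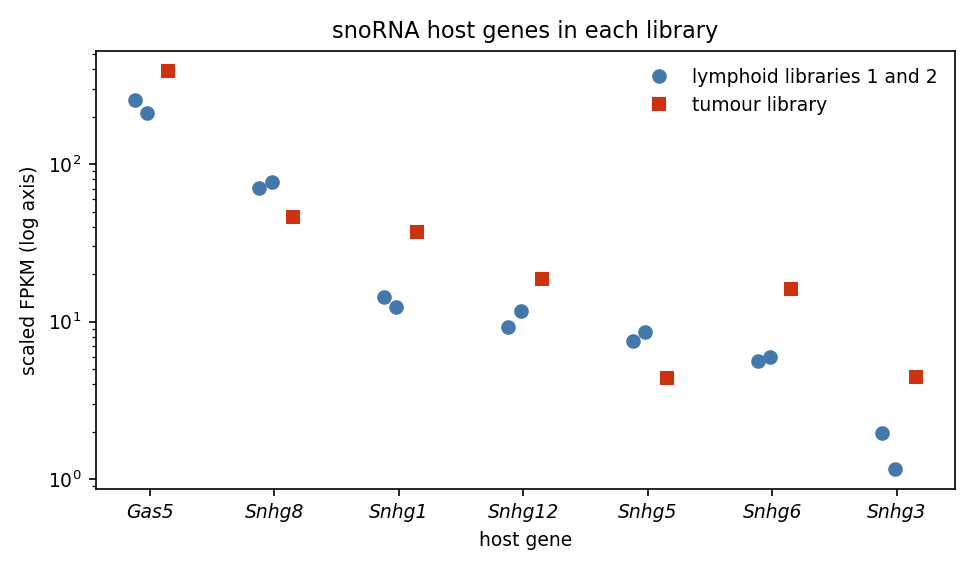
Scaled FPKM of each host gene (log axis) in the 2 lymphoid libraries (circles) and the tumour library (square), with genes ordered by their lymphoid mean. The tumour value lies above both lymphoid values for Gas5, Snhg1, Snhg12, Snhg6 and Snhg3 and below both for Snhg8 and Snhg5.

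Gas5, the host of a run of box C/D snoRNAs (chromosome 1, 161034422 to 161038539, plus strand), was by far the most abundant member. Its scaled FPKM was 255.3 and 210.6 in the lymphoid libraries and 392.3 in the tumour library. The groups did not overlap, with the tumour value 1.54 and 1.86 times the lymphoid ones, and 41.3% of all tested genes likewise had their tumour value above both. The log2 change was 0.76 with an SE of 0.23, not past the threshold (limma adjusted p = 0.0735), and it was -0.42 as deposited. The row rested on about 1900 tumour fragments, and with counting error the limma adjusted p was 0.212. Zbtb37, on the opposite strand, overlaps Gas5 by 428 nt and was at 4.82, 3.84 and 2.40 scaled FPKM, not called. The GENCODE transcript paired with RefSeq retains introns and holds 6 of the 9 snoRNA genes within its exons. Reads from these snoRNAs could thus be counted as Gas5 if the authors' annotation used that model. The fragment estimate uses the length of this transcript, 2556 nt, the longest annotated for Gas5 (shortest 346 nt). With a shorter model the estimate would be lower.

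Snhg1 hosts 8 box C/D snoRNA genes including Snord22 (chromosome 19, 8723475 to 8726443, plus strand). It stood at 14.4 and 12.4 scaled FPKM in the lymphoid libraries and 37.0 in the tumour library. The tumour value was 2.56 and 2.99 times the lymphoid values, the largest log2 change of the 7 genes at 1.40 with an SE of 0.18 (limma adjusted p = 0.00629). With counting error added the limma adjusted p was 0.0728, from about 42.4 tumour fragments. The transcript paired with RefSeq holds none of the snoRNA genes in its exons.

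Snhg6, the host of Snord87 (chromosome 1, 9941959 to 9944118, minus strand), was the steadiest between lymphoid libraries. Scaled FPKM was 5.64 and 5.93 there and 16.1 in the tumour library, 2.86 and 2.72 times as high. Its log2 change was 1.34 with an SE of 0.15 (limma adjusted p = 0.00414, and 0.215 with counting error, on about 12.2 tumour fragments). On the opposite strand Mcmdc2 overlaps it by 127 nt and rose far more, from 2.45 and 2.32 to 29.9 scaled FPKM (log2 change 3.19, limma adjusted p = 0.000482). Whether counting used strand is not given in the sources used here, and the part of Mcmdc2 reads in the Snhg6 value was not tested.

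Snhg12 carries both kinds, Snora16a, Snora44, Snora61 and Snord99 (chromosome 4, 132308623 to 132311024, plus strand). It was at 9.22 and 11.8 scaled FPKM in the lymphoid libraries and 18.7 in the tumour library. The tumour value lay above both, at 2.03 and 1.59 times, and the log2 change of 0.79 (SE 0.20) passed the threshold narrowly (limma adjusted p = 0.0432, and 0.371 with counting error, on about 21.5 tumour fragments). As deposited its change was -0.31. The call was lost with no filter (limma adjusted p = 0.175), with genes under a mean of 5 FPKM left out (0.0888) and with a pseudocount of 0.1 (0.0511).

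Snhg3 hosts Snora73a and Snora73b, the U17 snoRNAs needed for cleavage of the ribosomal RNA precursor (chromosome 4, 132348014 to 132353686, minus strand). It was the least abundant member in lymphoid cells, at 1.97 and 1.16 scaled FPKM, against 4.42 in the tumour library. Its log2 change was 1.10 with an SE of 0.22 (limma adjusted p = 0.0242). Only about 3.66 fragments stood behind the tumour value, and with counting error the limma adjusted p became 0.493. Rcc1 overlaps this locus on the same strand over 5592 nt, so reads of the 2 genes may have been shared. Rcc1 was at 1.51, 1.00 and 2.53 scaled FPKM and was not called (log2 change 0.65, limma adjusted p = 0.0673).

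Snhg5, the host of the U50 snoRNAs Snord50a and Snord50b (chromosome 9, 88521050 to 88522929, minus strand), moved the other way. It was at 7.52 and 8.59 scaled FPKM in the lymphoid libraries and 4.41 in the tumour library. Both lymphoid values were above the tumour value, 1.71 and 1.95 times, and the log2 change of -0.74 (SE 0.16) was called (limma adjusted p = 0.0296). It rested on about 8.38 tumour fragments, and with counting error the limma adjusted p was 0.485. The call was lost with library totals (log2 change -0.08, limma adjusted p = 0.841), with no filter (0.0983) and with genes under a mean of 5 FPKM left out (0.0649). Its RefSeq-paired transcript holds no snoRNA gene in an exon.

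Snhg8, the host of Snora24 (chromosome 3, 123507552 to 123508404, minus strand), was the second most abundant member. It was at 70.7 and 76.7 scaled FPKM in the lymphoid libraries and 46.2 in the tumour library. The log2 change of -0.66 (SE 0.19) missed the threshold (limma adjusted p = 0.0629, and 0.299 with counting error), although the groups did not overlap, as was so on that side for 42.6% of tested genes. Its RefSeq-paired transcript is a single exon of 776 nt that includes the whole of Snora24, and the Snora24 row itself was lower. Gas5 and Snhg8, the members whose paired transcript includes a snoRNA, were also the most abundant, and the share of snoRNA reads in either value was not tested.

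Ordered by lymphoid mean, the levels ran Gas5 (232.9 ± 31.6 scaled FPKM, SD, n = 2), Snhg8 (73.7 ± 4.26), Snhg1 (13.4 ± 1.46), Snhg12 (10.5 ± 1.79), Snhg5 (8.06 ± 0.756), Snhg6 (5.78 ± 0.209) and Snhg3 (1.56 ± 0.573). Both lymphoid libraries gave this order. Snhg1 and Snhg12, and Snhg12 and Snhg5, were neighbours whose intervals of mean ± SD overlapped. In the tumour library Snhg6 and Snhg12 stood above Snhg5, and Snhg3 reached 4.42 beside 4.41 for Snhg5. At 2-fold against both lymphoid libraries, with no test, 3 members were higher (Snhg1, Snhg3 and Snhg6) and 0 lower, against 8.76% and 6.32% of all tested genes.

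Scaling set the zero point but not the side of the median tested gene on which each host lay. The order among hosts was not fully kept. Snhg5 lay above Snhg8 as deposited (-1.70 against -1.81) and below it after scaling (-0.74 against -0.66). Relative to the median tested gene, the 5 higher members lay above it and Snhg5 and Snhg8 below it as deposited, under both median-of-ratios versions and under library totals. The distance of Gas5 from the median gene was 0.76 after scaling, 0.54 as deposited and 0.88 with library totals. For Snhg5 these distances were -0.74, -0.75 and -0.73. As deposited, the changes of Snhg1, Snhg3 and Snhg6 were 0.27, 0.24 and 0.27, without a call by limma. With no filter on low genes, Snhg6 was the 1 member called (limma adjusted p = 0.026). The absolute direction of Gas5 and Snhg12 reversed as deposited, where the median gene was at -0.96, and that of Snhg8 with library totals, where it was at 0.65.

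**Figure D2:**
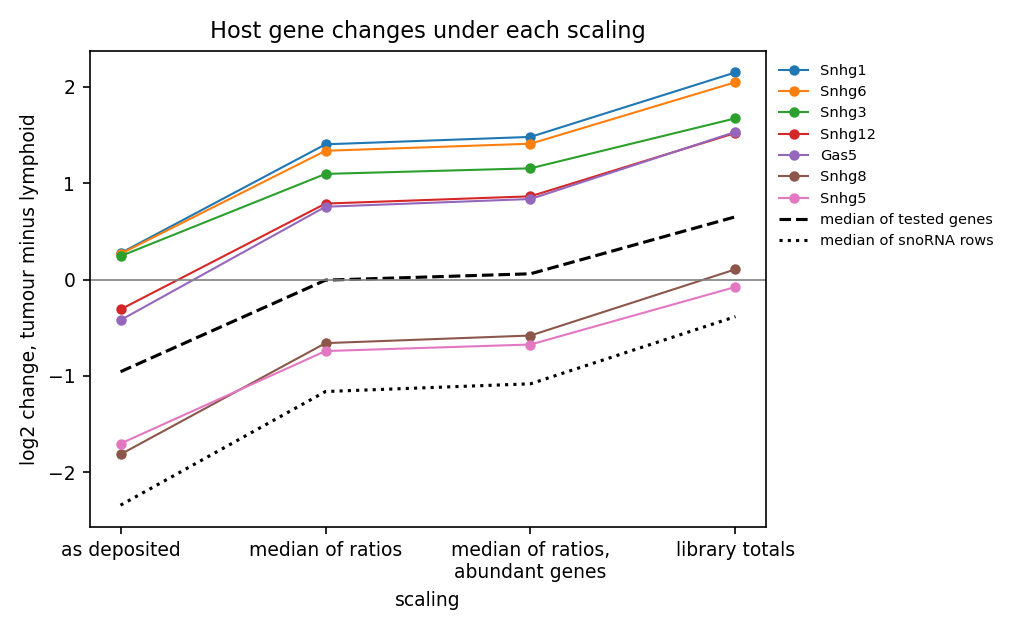
Log2 change (tumour minus lymphoid) of each host gene under 4 scalings, with the median of tested genes (dashed) and of snoRNA rows (dotted). Lines run nearly parallel, with 5 hosts above the dashed line and Snhg8 and Snhg5 between the dashed and the dotted line at each scaling.

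The snoRNAs inside these hosts were lower in the tumour library after median-of-ratios scaling. Of the 27 snoRNA genes 9 had a row, in 5 of the hosts. All 9 were below both lymphoid libraries after scaling, as were 42.6% of all tested genes. Limma called 6 of them lower (Snord47, Snord22, Snora16a, Snora44, Snora61 and Snora24) and 0 higher (0 higher also at an unadjusted p under 0.05). Of all tested genes 9.17% were called lower and 12.7% higher. The median log2 change of the 9 rows was -1.14. These calls were lost with library totals, where the median was -0.36. Fewer of the 9 rows were called with no filter or at a mean of at least 5 FPKM. As deposited more were called, at a median of -2.32. With counting error added 0 were called by limma, and 7 were lower at an unadjusted p under 0.05. A level of an RNA this short depends on how the program corrected for length, and changes are given for the same row between libraries. Whether that correction was alike in each library was not tested. Rows of short RNA classes, snoRNAs among them, held 79.4% and 82.2% of the summed FPKM in the lymphoid libraries. In the tumour library they held 66.6%.

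**Figure D3:**
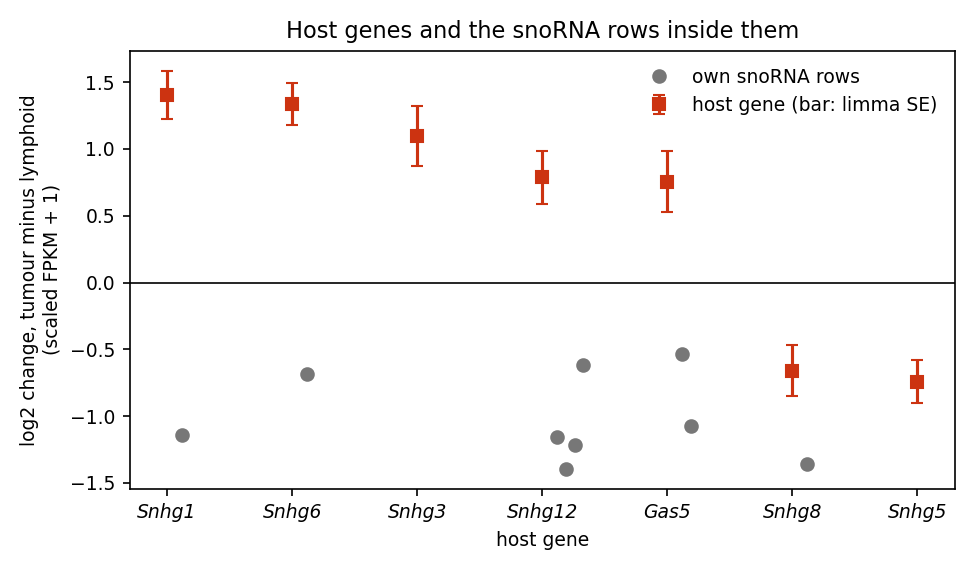
Log2 change (tumour minus lymphoid, scaled FPKM + 1) of each host gene (squares, bars are limma SE) and of the snoRNA rows inside it (circles). Every circle lies below 0 and below the square of its host. Snhg3 and Snhg5 have no snoRNA row.

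Snord47, in Gas5, was at 4623 and 5266 scaled FPKM in the lymphoid libraries and 2345 in the tumour library (log2 change -1.07, limma adjusted p = 0.0357). A further row inside Gas5 is named Mir5117, a symbol that GENCODE gives to a snoRNA gene, and it was not called (2319, 2084 and 1514). Both were lower in the tumour library while Gas5 was higher there. Snord22, in Snhg1, was at 30408 and 32798 against 14341 scaled FPKM (log2 change -1.14, limma adjusted p = 0.035). In Snhg12, Snora44 was at 2120 and 2053 against 792.2, the largest fall of the 9 (log2 change -1.40, limma adjusted p = 0.0133), and Snord99 at 14858 and 16122 against 10106 was not called. Snord87, in Snhg6, was at 12735 and 14773 against 8540 and was not called (limma adjusted p = 0.128), while Snora24, in Snhg8, was at 3245 and 2835 against 1183 (log2 change -1.36, limma adjusted p = 0.0172).

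The ratio of a host to its own snoRNA needs no scaling, since both come from 1 library, but it still holds the length correction of the snoRNA. Per 1000 FPKM of Snord22 there were 0.475 and 0.377 FPKM of Snhg1 in the lymphoid libraries and 2.58 in the tumour library, which is 5.44 and 6.84 times as much. Between the lymphoid libraries the same ratio differed by a factor of 0.795. For Gas5 against Snord47 the values were 55.2, 40.0 and 167.3, and for Snhg6 against Snord87 0.443, 0.402 and 1.89. In Snhg12 the ratio rose 5.43-fold and 4.13-fold against Snora44 and 2.99-fold and 2.54-fold against Snord99. Snhg8 against Snora24 moved least, from 21.8 and 27.0 to 39.1, or 1.80 and 1.44 times. The RefSeq-paired transcript of Snhg8 includes Snora24, and that of Gas5 includes Mir5117. Host and snoRNA may share reads in these pairs, and the part of such reads in the ratios was not tested. In all 9 pairs, from 5 hosts, the ratio was higher in the tumour library than in both lymphoid libraries. The median difference in log2 change was 1.95 (range 0.70 to 2.54). The pairs are not independent, since those with Snora16a, Snora44, Snora61 and Snord99 share the Snhg12 value. The median pair was Snhg12 with Snora16a.

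A higher ratio was also seen for other hosts, and snoRNA rows were lower in general. Of 118 rows named Snord, Snora or Scarna, 109 were tested, and limma called 67 lower and 3 higher (15 lower and 0 higher with counting error, where 3 were higher at an unadjusted p under 0.05), against 9.17% and 12.7% of all tested genes. Their median log2 change was -1.16, close to the -1.14 of the 9 rows inside the members. Box C/D rows had a median of -1.14 (65 tested) and box H/ACA rows of -1.24 (35 tested). Protein-coding hosts had a higher log2 change than their own snoRNA in 70 of 75 pairs (57 hosts), with a median difference of 1.07. Hosts of other GENCODE classes had the higher change in 10 of 13 pairs (9 hosts), with a median of 1.53 and a range of -3.77 to 4.09. That set follows the GENCODE class and differs from the list of non-coding hosts below. Its median pair was Cct6a with Snora15, and Cct6a was placed there only by its class of processed transcript. The difference of these medians from the 1.95 of the members was not tested.

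**Figure D4:**
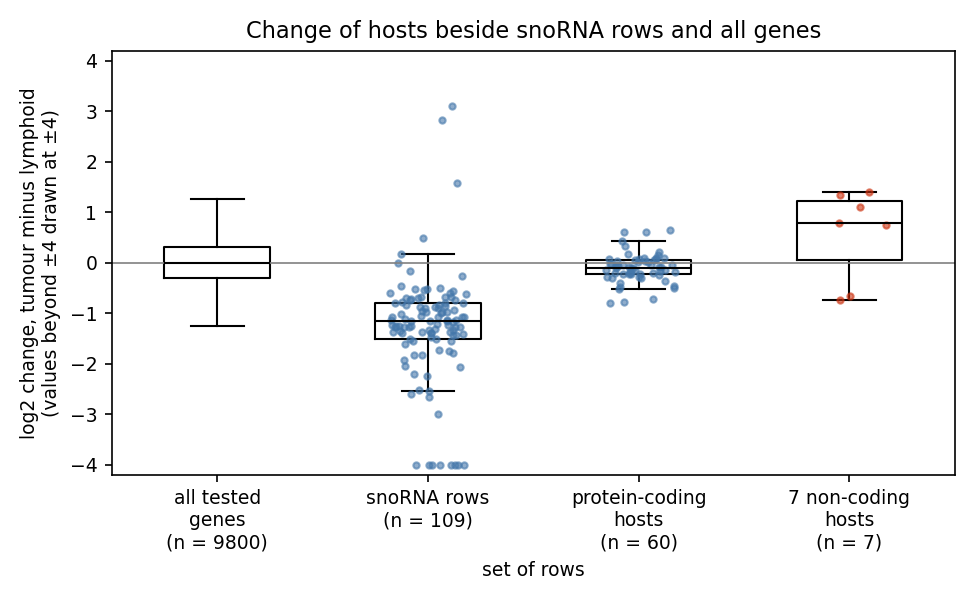
Log2 change (tumour minus lymphoid) of all tested genes, snoRNA rows, protein-coding genes with a named snoRNA inside and the 7 non-coding hosts. Boxes span the quartiles with a line at the median, whiskers reach up to 1.5 times the box length, and points are single rows (not drawn for all genes, and drawn at ±4 where beyond). The medians are -0.01, -1.16, -0.10 and 0.79.

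Protein-coding hosts were called in equal numbers each way. Among 180 tested protein-coding genes with an annotated snoRNA inside, limma called 11 higher and 11 lower, against 12.7% and 9.17% of all genes, and the median was -0.09. The largest rises were Odc1, the first enzyme of polyamine synthesis (3.20), Trpm2, a calcium channel (2.64), and Snhg11 (2.51), and the largest falls were Rpl30 (-3.05), Gtf2f2 (-1.07) and Rnf41 (-1.02). Snhg11 has the class protein-coding in GENCODE and is also on the list of other non-coding hosts, so its call is counted in both sets. Rpl30 stood at under 1 estimated tumour fragment. Of the 60 tested hosts of a Snord, Snora or Scarna gene, a subset taken after values were seen, 3 were lower and 0 higher by limma (4 higher at an unadjusted p under 0.05), with a median of -0.10. The 30 ribosomal protein genes among the hosts, which share the pyrimidine-rich start, had 1 call, that of Rpl30, and a median of -0.17.

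Other hosts named as non-coding also went both ways. Of 19 listed, 9 had a row and 5 were tested, with 2 higher and 2 lower by limma, against 12.7% and 9.17% of all tested genes. Snhg11 (1.58, 1.21 and 12.6 scaled FPKM) and Snhg9, the host of Snora78 (4.27, 3.64 and 11.2), were higher, by 2.51 and 1.30. Dancr, the host of Snora26, was lower at 32.8, 37.4 and 12.8 scaled FPKM (log2 change -1.38, limma adjusted p = 0.00673). Of its 2 RefSeq-paired transcripts 1 includes its snoRNA in an exon. The row 1110038B12Rik was listed at 0 in the tumour library and at 3.78 and 3.38 in the lymphoid ones, while Snord52 inside it was among the 3 snoRNA rows that rose (46.0, 57.1 and 155.2 scaled FPKM). With counting error Snhg11 alone of these hosts was called.

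The lists of genes that make or destroy the products of the hosts are read against the 12.7% of all tested genes called higher and 9.17% called lower (21.9% either way). The snoRNP list (core proteins such as fibrillarin and dyskerin with their assembly factors) had 1 higher and 2 lower of 20 tested, near that share, with a median of 0.06. Shq1, a dyskerin chaperone, rose by 0.81, and the assembly factor genes Znhit3 and Naf1 were lower (-0.90 and -0.67). Of 23 nonsense-mediated decay genes only Smg8 was called (0.56, limma adjusted p = 0.0464), with a median of -0.01. In the debranching and exosome list 1 of 18 was higher, Dbr1, the lariat debranching enzyme (2.93 and 3.25 against 6.78 scaled FPKM, log2 change 0.93, limma adjusted p = 0.0124), and the exosome subunit genes Exosc9 (-1.77) and Exosc5 (-0.61) were lower, also near that share. With counting error limma called 0 genes of these 3 lists (2 higher and 1 lower at an unadjusted p under 0.05 over the 3).

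The growth and glucocorticoid lists had higher calls at about the 12.7% of all tested genes. Among 19 tested genes of growth and mTORC1 translation control, which governs the translation of 5′ TOP transcripts, Mxi1 (1.35) and Rheb (1.19) rose, and the median was -0.04. In the glucocorticoid receptor list, tested because Gas5 is known to bind that receptor, Errfi1 (1.17) and Per1 (0.88) rose of 12, and Nr3c1, the receptor gene, was at 18.1, 16.4 and 22.2 scaled FPKM and was not called. Both lists had 0 lower calls by limma (1 lower each at an unadjusted p under 0.05), and 0 calls by limma with counting error (2 growth genes and 3 of the glucocorticoid list higher at an unadjusted p under 0.05). Of 12 other long non-coding RNAs 3 were higher and 0 lower by limma (3 lower at an unadjusted p under 0.05), against 12.7% and 9.17% of all tested genes. Jpx (2.13) and Kcnq1ot1 (1.90) rose most, and Malat1 was at 1389, 1444 and 1462 scaled FPKM. Rmrp and Rpph1, short structured RNAs of RNase complexes, lay lower without a call (-0.66 and -0.72).

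With the profile of Gas5 over the 3 libraries as a guide, the most similar tested genes were Rel, Nsun4 and C920009B18Rik. Their Euclidean distances were 0.0119, 0.0185 and 0.0256 between centred values of log2(scaled FPKM + 1). Rel was at 6.78, 5.49 and 10.9 scaled FPKM, Nsun4 at 1.92, 1.39 and 3.39, and C920009B18Rik at 2.24, 1.74 and 4.03. At such low values the added 1 shrinks differences, so their ratios between libraries are not those of Gas5. Within a distance of 0.1 lay 80 genes.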

How the data were processed

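Per the labels' protocols, total RNA from 300000 cells went into strand-marking libraries depleted of ribosomal RNA, read in pairs of 75 bp. Per the submitters' processing notes, kallisto, DESeq2 and build mm10 were involved, with no role stated. Which program made the values is not given in the sources used here. No label states the unit, and the deposited values were read as FPKM from the file headers and from unequal sums (955281, 1175316 and 279397). For 252 symbols with several rows the highest row was kept. Of 23337 symbols 21705 matched GENCODE M21 by name and 1270 by an older name.

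Genes averaging 1 FPKM or more were divided by median-of-ratios factors (1.29, 1.33 and 0.58) and fitted as log2(scaled FPKM + 1) with limma 3.58.1 (R 4.3.3, mean-variance trend, 1 residual degree of freedom), with Benjamini-Hochberg adjustment. A call needs an adjusted p under 0.05. Log2 changes understate those of low genes. Depth came from the commonest FPKM times length among low genes with 1 transcript (within 3%, 109 to 130 genes), and fragments from FPKM, depth and the RefSeq-paired transcript length. The counting-error fit widens the SE by the Poisson variance expected for the tumour library. The fit was tested on simulated data with 200 changed genes, where it recovered 0% of log2 changes of 1 and 80.6% of changes of 2. The real fit called smaller changes, such as that of Snhg5 (-0.74), so the simulation does not match these data and cannot say how many changes were missed. A gene without a call is not shown to be unchanged. The members, lists and settings were chosen with earlier results of these data known. Named genes are all members, the 2 largest called changes each way of each list or its most abundant gene, the most abundant snoRNA of each host, the 3 largest called changes each way among protein-coding hosts, and the 3 nearest profiles to the most abundant member; others were chosen after their values were seen. Alternatives were no scaling, library totals, size factors from abundant genes, other filters and pseudocounts, each lymphoid library left out, counting error, and summed rows.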

Additional observations from a re-analysis of the deposited data

How the results depend on the processing

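As deposited, limma called 465 genes higher and 7620 lower, 0 hosts higher and 2 lower (the same at an unadjusted p under 0.05), 1 snoRNA row higher and 103 lower, and 6 protein-coding hosts higher and 161 lower, with a median of -2.32 for the snoRNA rows inside the members. Gas5 (-0.42) and Snhg12 (-0.31) reversed. With library totals the counts were 4370 and 279 genes, 5 and 0 members (5 and 0 unadjusted), 6 and 36 snoRNA rows and 63 and 2 protein-coding hosts, the median was -0.36, and Snhg8 reversed (0.11). With no filter they were 6362 and 512 genes, 1 and 0 members (2 and 2 unadjusted), 0 and 27 snoRNA rows (1 and 60 unadjusted) and 29 and 4 protein-coding hosts. At a mean of at least 5 FPKM, which drops Snhg3, they were 211 and 191 genes, 2 and 0 members (4 and 2 unadjusted), 1 and 40 snoRNA rows and 1 and 1 protein-coding hosts. With counting error they were 328 and 34 genes, 0 and 0 members, 0 and 15 snoRNA rows and 5 and 1 protein-coding hosts. The cause of these moves was not tested.

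Leaving out either lymphoid library leaves no residual degree of freedom, so there is a value and no test. The 7 members kept their direction, the count at 2-fold or higher was 3 to 4, and the median of the own snoRNA rows was -1.19 to -1.04. No paired analysis was possible because the groups share fewer than 2 replicate numbers. Depth limits Snhg3, Snhg5 and Snhg6 most, at about 3.66, 8.38 and 12.2 tumour fragments.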
